A study of Mus musculus with 8 samples.

Results

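Signals of Ifitm1, Ifitm2, Ifitm3 and Ifitm6 were examined in spleens of Yaa and wild-type mice. They encode small interferon-induced membrane proteins, and the members are all probe sets that the platform annotation maps to exactly 1 of these 4 symbols. Each gene had 1 such probe set, so there were 4 members among 18193 named genes, and 0 further probe sets named a member beside another gene. The members were chosen by symbol, and the family was selected on log2 differences between Yaa and wild type in these same samples, so the differences between the groups are described here and no test of them is used as support. The wild-type group was 4 spleens of the strain labelled C57Bl/6J, and the Yaa group was 4 samples of B6.SB-Yaa/J, all from males of 8 weeks. The third Yaa sample pooled 2 spleens, and each of the others came from 1. The control mice carry no Yaa, no group was treated, and all spleens went through red cell lysis before total RNA was labelled for Affymetrix arrays, 1 array a sample. The Yaa Y chromosome holds an extra X-derived segment that includes Tlr7, a receptor for single-stranded RNA. The Ifitm genes lie on another chromosome.

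IFITM proteins sit in the plasma membrane and in endosomes, where they hinder the fusion of enveloped viruses with the cell. They carry palmitate on conserved cysteines, and they are among the genes that type I and type II interferons induce, although many cells hold them without interferon. IFITM3 acts mainly in late endosomes and is the member best known for restricting influenza virus. IFITM1 acts more at the cell surface, IFITM2 resembles IFITM3, and Ifitm6 is a less studied mouse member.

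Samples are named by group and replicate number. All values below are log2(signal + 16) after quantile normalization unless they are called deposited, and the added 16 sets a floor of 4. A value of one probe set cannot be set against that of another, so levels are compared between samples within a gene. Samples Yaa 2 and Yaa 3 stood apart from the rest, at 68.79 and -92.39 on the first principal component, which held 56.8% of the variance, with the other 6 samples from -18.42 to 20.05. In Yaa 3 the lymphocyte markers of the labelled tissue were low, while its splenic macrophage markers were high. The mean of 9 tested B cell markers was 5.57 there and 10.20 to 10.94 in the other 7 samples, and the mean of 10 T cell markers was 5.41 there and 8.43 to 9.45 elsewhere. The mean of 10 splenic macrophage markers was 9.86 there and 8.41 to 8.65 elsewhere. In Yaa 2 the mean of 8 erythroid markers was 10.36, against 11.96 to 12.33 elsewhere. The members' differences are therefore given with and without these samples, and differences of other genes and lists have the value without both beside them where it moved by over 1.5 times. In bulk RNA, a change in the number of cells of a type and a change in RNA per cell cannot be told apart.

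The promoters are shown because the family is known for its response to interferon, which acts through a motif whose core reads GAAANNGAAA. The core was searched on both strands, with overlapping matches counted, in RefSeq windows of 300 bases (250 before the transcript start and 50 after it, build GRCm38.p6). Of the 4 members, all of which had 1 window, 2 held it, and 1131 of 32851 windows in all did (3.44%). Among genes with a window, 11 of 18 of a list of type I interferon response genes held it, as did 7 of 13 interferon-gamma response genes. Of cell type lists, 2 of 13 monocyte and macrophage markers, 2 of 8 NK cell markers and 0 of 15 neutrophil markers held it. The 150 bases before each start follow, and then the first 30 bases after the start of Ifitm3, 5′ to 3′, with matches in capitals.
Ifitm1 (chr7:140967926-140968075, plus strand): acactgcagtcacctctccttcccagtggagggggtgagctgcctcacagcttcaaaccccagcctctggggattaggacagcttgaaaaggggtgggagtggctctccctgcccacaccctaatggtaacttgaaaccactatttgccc
Ifitm2 (chr7:140955962-140956111, minus strand): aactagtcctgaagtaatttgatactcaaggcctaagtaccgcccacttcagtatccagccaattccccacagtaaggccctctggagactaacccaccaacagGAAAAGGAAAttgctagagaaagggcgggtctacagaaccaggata
Ifitm3 (chr7:141010745-141010894, minus strand): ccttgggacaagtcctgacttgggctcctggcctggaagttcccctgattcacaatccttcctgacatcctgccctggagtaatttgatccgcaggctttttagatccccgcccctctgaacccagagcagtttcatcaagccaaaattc
Ifitm6 (chr7:141016893-141017042, minus strand): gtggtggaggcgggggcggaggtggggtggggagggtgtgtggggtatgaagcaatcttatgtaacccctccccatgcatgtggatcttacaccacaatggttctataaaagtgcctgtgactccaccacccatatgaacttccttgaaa
Ifitm3 past the start (chr7:141010715-141010744, minus strand): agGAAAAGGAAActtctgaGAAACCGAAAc
Ifitm2 held 1 match, beginning 46 bases before the start. Ifitm3 held 2, beginning at bases 3 and 20 of the transcript, and the first of them had the same letters as the match of Ifitm2. The windows of Ifitm1 and Ifitm6 held 0 matches, which says only that these letters were not in them.

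Ifitm3, the endosomal restriction factor, was higher in each Yaa sample than in any wild-type sample. Its log2 signal was 10.62, 10.57, 10.67 and 10.41 in wild type 1 to 4, and 11.12, 11.31, 11.40 and 10.98 in Yaa 1 to 4. The wild-type samples lay close together, and the lowest Yaa sample, Yaa 4, stood above the highest wild type. The mean was 10.57 ± 0.11 (SD, n = 4) for wild type, and for Yaa it was 11.20 ± 0.19 (SD, n = 4). The difference was 0.64 ± 0.12 (SE), or 1.55-fold. As deposited, before normalization, the groups overlapped, with signals of 1392 to 1873 in wild type and 1807 to 2663 in Yaa, and 3 of the 4 Yaa samples were above all wild types.

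Ifitm6 had the largest difference of the 4 members over all samples, but not without Yaa 1, its highest sample, and the order of the Yaa samples was another than for Ifitm3. Wild type 1 to 4 stood at 8.15, 7.85, 8.26 and 7.79, and Yaa 1 to 4 at 9.86, 8.43, 9.39 and 8.74. The highest sample was Yaa 1, at 3.59 times the wild-type mean, and Yaa 2 was the lowest of the Yaa samples, at 1.33 times. The groups did not overlap, either here or as deposited (218.0 to 278.4 in wild type and 353.3 to 977.4 in Yaa). The means were 8.01 ± 0.23 (SD, n = 4) and 9.10 ± 0.64 (SD, n = 4), a difference of 1.09 ± 0.30 (SE), or 2.13-fold. Without Yaa 1 it was 0.84 ± 0.25 (SE), below the 0.99 ± 0.33 (SE) of Ifitm1.

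Ifitm1, the surface member, was high in Yaa 2 and Yaa 3. It stood at 7.32, 7.37, 6.85 and 7.06 in wild type 1 to 4, and at 7.64, 8.62, 8.52 and 7.30 in Yaa 1 to 4. Yaa 4 lay below wild type 1 and wild type 2, so the groups overlapped. The means were 7.15 ± 0.24 (SD, n = 4) and 8.02 ± 0.65 (SD, n = 4), a difference of 0.87 ± 0.30 (SE), or 1.82-fold. Without Yaa 2 and Yaa 3 together it was 0.32 ± 0.18 (SE).

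Ifitm2, the close relative of Ifitm3, was also high in Yaa 2 and Yaa 3, while Yaa 4 lay within wild type. Wild type 1 to 4 stood at 8.97, 9.09, 9.14 and 9.11, a narrow range, and Yaa 1 to 4 stood at 9.31, 9.97, 10.36 and 9.12. The means were 9.08 ± 0.07 (SD, n = 4) and 9.69 ± 0.58 (SD, n = 4). The difference was 0.61 ± 0.26 (SE), or 1.53-fold. It was 0.39 ± 0.19 (SE) without Yaa 3, 0.40 ± 0.26 (SE) with the deposited signals, and 0.14 ± 0.12 (SE) without Yaa 2 and Yaa 3 together.

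**Figure D1:**
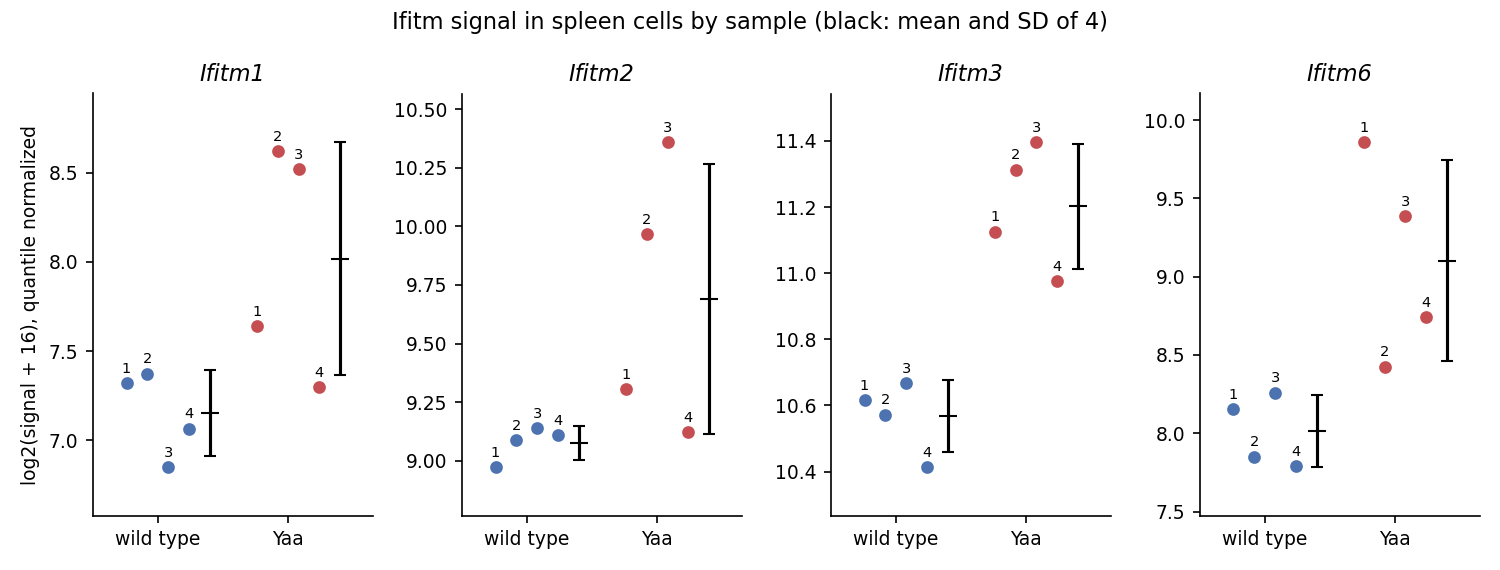
Log2(signal + 16) of Ifitm1, Ifitm2, Ifitm3 and Ifitm6 after quantile normalization, 1 point per sample with its replicate number, for 4 wild-type (blue) and 4 Yaa (red) samples; black marks show the mean and SD, and each panel has its own axis range. The Yaa samples of Ifitm3 (10.98 to 11.40) and Ifitm6 (8.43 to 9.86) lie above all wild types, while Yaa 4 lies among the wild types for Ifitm1 and Ifitm2.

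The array-wide fit with limma, with Benjamini-Hochberg adjustment over 22518 probe sets, called 0 of the 4 members, with adjusted p from 0.388 for Ifitm3 to 0.997 for Ifitm2. In that fit 0.00444% of tested probe sets were called higher. At an unadjusted p under 0.05, 4 of 4 members were higher, where 2.97% of probe sets were higher and 1.76% lower. Every Yaa sample was above every wild-type sample for 2 of 4 members, Ifitm3 and Ifitm6, where this held for 2.43% of probe sets and the reverse for 1.67%. With deposited signals it held for 1 of 4, Ifitm6, where it held for 0.435%. The members were picked with this comparison known, so nothing is read from these counts.

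How far the differences rested on Yaa 2 and Yaa 3 varied among the members. Without both samples, Ifitm3 had 0.48 ± 0.10 (SE) and Ifitm6 1.29 ± 0.26 (SE), with adjusted p of 0.0958 and 0.0756. When limma weighted the arrays, Yaa 2 and Yaa 3 received 0.22 each. The differences then were 0.56 ± 0.09 (SE) for Ifitm3 and 1.46 ± 0.25 (SE) for Ifitm6, both past the threshold (adjusted p = 0.0268 and 0.0272). In that fit 0.453% of probe sets were called higher. Ifitm1 and Ifitm2 had 0.48 ± 0.20 and 0.26 ± 0.14 (SE) with the weights and were not called (adjusted p = 0.388 and 0.550). Over all 18 alternative settings each member kept a higher mean in Yaa. With the deposited signals the members had 0.40 to 0.88, where all probe sets together shifted by -0.19 in their median.

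**Figure D2:**
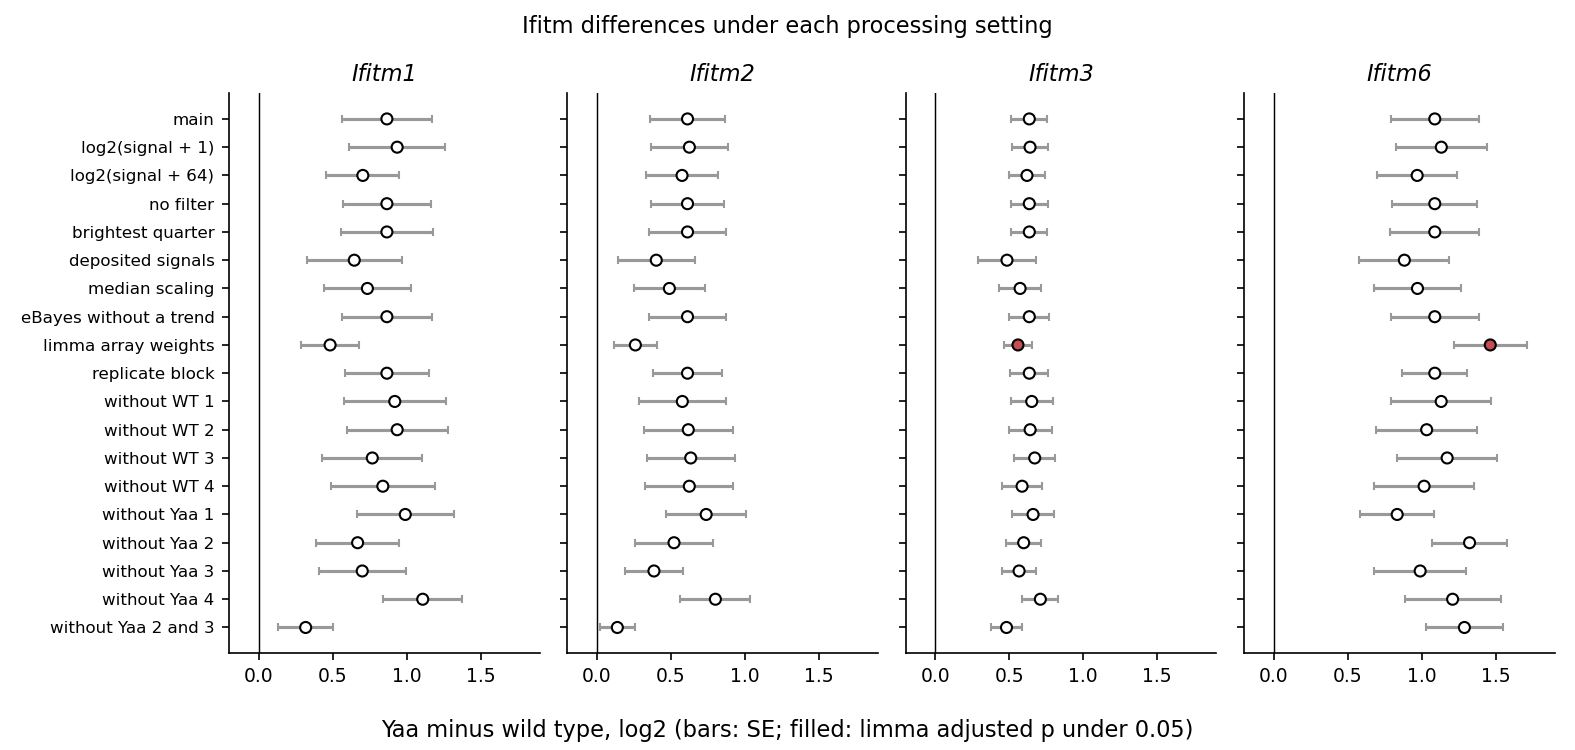
Yaa minus wild type on the log2 scale (points, with bars for SE) of the 4 Ifitm genes in the fit described and under 18 other settings, among them each sample left out; filled points have a limma adjusted p under 0.05. All points lie above 0, the spread over settings is narrowest for Ifitm3 (0.48 to 0.71), and Ifitm2 comes nearest to 0 without Yaa 2 and Yaa 3 (0.14).

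Across samples the members fell into different patterns. Ifitm1, Ifitm2 and Ifitm3 were highest in Yaa 2 and Yaa 3, and Ifitm6 in Yaa 1 and Yaa 3. In Yaa 2, Ifitm1 stood 1.47 and Ifitm2 0.89 above the wild-type mean, and Ifitm6 stood 0.41 above it. In Yaa 1 the order was turned, with Ifitm6 at 1.85 above the wild-type mean, Ifitm1 at 0.49 and Ifitm2 at 0.23. Over 8 samples Pearson's r was 0.913 between Ifitm1 and Ifitm2, 0.845 between Ifitm2 and Ifitm3, and 0.866 between Ifitm1 and Ifitm3. With the group means taken away it was 0.842, 0.830 and 0.766. For Ifitm6 it was 0.458 with Ifitm1, 0.482 with Ifitm2 and 0.767 with Ifitm3, and with group means taken away -0.25, -0.077 and 0.15. These r values share arrays and normalization. Over the 6 samples without Yaa 2 and Yaa 3, r was 0.360 for Ifitm1 with Ifitm2, and 0.944 for Ifitm3 with Ifitm6. Values of r over these 6 samples, here and below, include the difference between the groups, on which the family was selected. The groups did not overlap for Ifitm3 or Ifitm6, so their r cannot show a likeness apart from that difference. With group means taken away, r over these 6 samples was not computed.

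**Figure D3:**
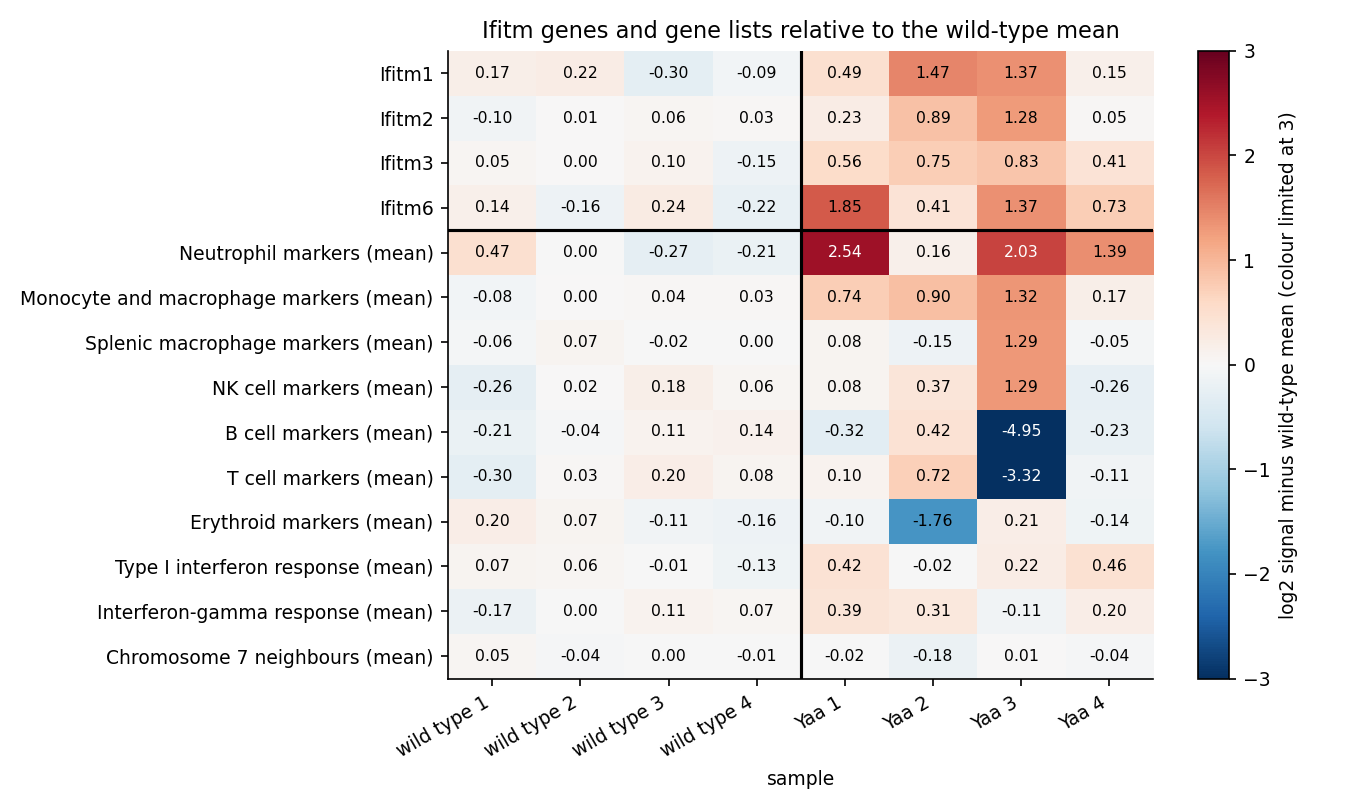
Log2 signal minus the wild-type mean in each of the 8 samples (columns) for the 4 Ifitm genes (top rows) and for the mean of gene lists (lower rows); red is above and blue below the wild-type mean, with colour limited at 3. Ifitm1 and Ifitm2 are strongest in Yaa 2 and Yaa 3, Ifitm6 in Yaa 1 (1.85) and Yaa 3 (1.37), and B cell markers in Yaa 3 stand at -4.95.

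Markers of phagocytes had higher means in Yaa, as the members did. The neutrophil list had 13 of 16 genes tested, including S100a8 and S100a9, the calprotectin subunits, and all 13 had higher means in Yaa. Its mean ranged from 7.99 to 8.73 in wild type and from 8.42 to 10.80 in Yaa. Limma called 0 of the 13, with 9 at an unadjusted p under 0.05. The monocyte and macrophage list had 14 of 18 genes tested, including the lysozyme genes Lyz1 and Lyz2. All 14 had higher means in Yaa, and the list ranged from 8.56 to 8.69 in wild type and from 8.81 to 9.96 in Yaa. Limma called 0 of these 14, with 8 at an unadjusted p under 0.05. Cxcr2, a chemokine receptor of neutrophils, came closest to the floor, at 4.39 to 5.70 in wild type and 4.42 to 6.97 in Yaa. Ly6g, a defining neutrophil surface marker, and Ly6c1 and Ly6c2, defining markers of monocytes, were not analysed here. Over all 10340 tested genes, 45.8% had higher means in Yaa, and limma gave 334 higher and 168 lower at an unadjusted p under 0.05. Counts of list genes at that limit, here and below, are to be read beside these. The median difference over all tested genes was -0.02, against medians of 1.47 and 0.71 for the neutrophil and monocyte lists. The lists moved in opposite directions without Yaa 2 and Yaa 3 together, to 2.29 for the neutrophil list and 0.40 for the monocyte list. Without Yaa 2 alone the neutrophil median was 2.22.

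The order of the Yaa samples was the same for Ifitm6 and the neutrophil list, highest in Yaa 1 and then Yaa 3, Yaa 4 and Yaa 2. The neutrophil mean stood 2.54, 2.03, 1.39 and 0.16 above the wild-type mean in those samples. For Ifitm2 and Ifitm3 the order was that of the monocyte list, highest in Yaa 3 and then Yaa 2, Yaa 1 and Yaa 4, where the list stood 1.32, 0.90, 0.74 and 0.17 above it. The NK cell list had the same order, at 1.29, 0.37, 0.08 and -0.26, so the order was not particular to monocytes. With list means over 8 samples, Ifitm2 had r of 0.941 for monocytes, 0.910 for NK cells, 0.864 for progenitors and 0.857 for endothelial and stromal markers. Ifitm3 had 0.926, 0.636, 0.765 and 0.623. Without Yaa 2 and Yaa 3, Ifitm2 had 0.921, 0.555, 0.564 and -0.110. With list means over 8 samples, Ifitm6 had r of 0.948 for neutrophils and 0.729 for monocytes. Without Yaa 2 and Yaa 3 these were 0.948 and 0.942, so they hardly differed. Gene by gene, Ifitm6 had a median r of 0.906 with the 13 neutrophil genes and 0.571 with the 14 monocyte genes over 8 samples. Ifitm2 had 0.392 and 0.839, Ifitm1 had 0.428 and 0.790, and Ifitm3 had 0.683 and 0.850. Over all tested genes the median r lay between -0.030 for Ifitm3 and 0.056 for Ifitm6. The r values with lists, here and below, include the difference between the groups, on which the family was selected. For the lists, r with group means taken away was not computed. Without Yaa 2 and Yaa 3, the medians with the neutrophil and monocyte genes were 0.939 and 0.778 for Ifitm6, and 0.930 and 0.745 for Ifitm3. They were 0.667 and 0.799 for Ifitm2, and 0.778 and 0.512 for Ifitm1. The part of these cells in the Ifitm differences was not tested.

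**Figure D4:**
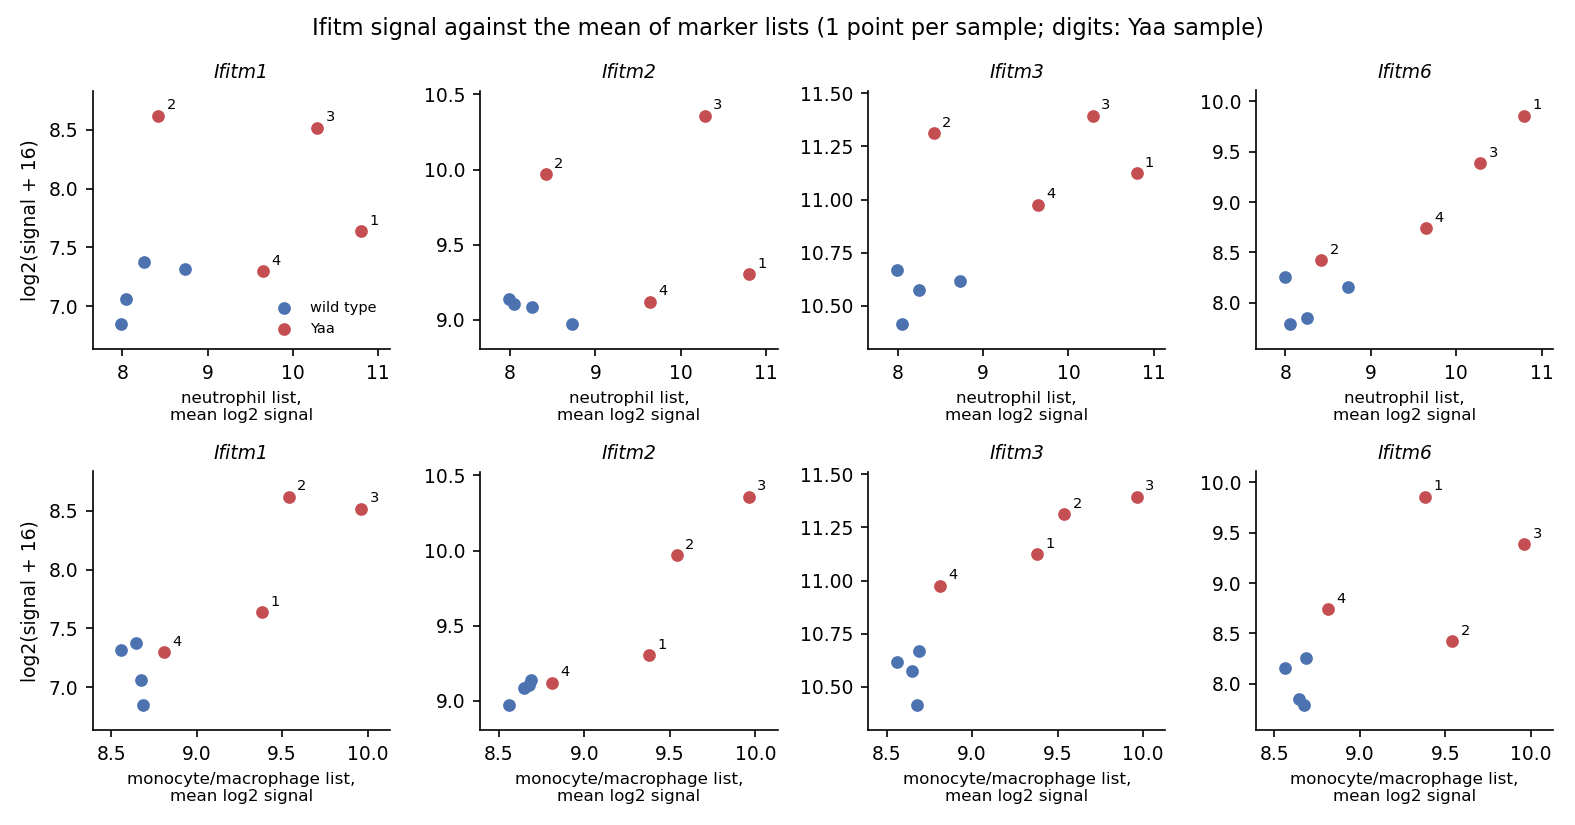
Log2(signal + 16) of each Ifitm gene (vertical axes) against the mean log2 signal of the neutrophil list (top) and of the monocyte and macrophage list (bottom), 1 point per sample, wild type in blue and Yaa in red with its replicate number. Among the Yaa samples, Ifitm6 follows the neutrophil mean, from 8.43 in Yaa 2 to 9.86 in Yaa 1, and Ifitm2 and Ifitm3 follow the monocyte mean, highest in Yaa 3. The NK cell list, not drawn, had the same order of Yaa samples as the monocyte list.

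The genes most like each member, by Pearson's r over the 8 samples among 10339 other genes, are a description of these arrays. For Ifitm6 they were Hp, which encodes haptoglobin, at 0.982, Pygl, a glycogen phosphorylase, at 0.970, Anxa3, an annexin of neutrophils, at 0.965, Rab3d, a GTPase of secretory vesicles, at 0.965, and Chil3, a chitinase-like protein of myeloid cells, at 0.964. With group means taken away these r stayed between 0.911 and 0.959, and without Yaa 2 and Yaa 3 they were 0.960 to 0.990. Hp had a difference of 1.46 ± 0.32 (SE) and Chil3, which is also in the neutrophil list, of 1.85 ± 0.53 (SE), which were 1.58 and 2.34 without Yaa 2 and Yaa 3.

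For Ifitm2 they were Hcar2, a niacin receptor of myeloid cells, at 0.995, the chemokine gene Ccl9 at 0.993, Tgfbi, a secreted matrix protein, at 0.990, Mpeg1, the pore-forming perforin-2 of macrophages, at 0.988, and Metrnl, a secreted protein, at 0.986. Their r was 0.975 to 0.995 with group means taken away and 0.723 to 0.933 without Yaa 2 and Yaa 3. Hcar2 had a difference of 0.82 ± 0.38 (SE), which was 0.48 without Yaa 3, 0.29 with array weights and 0.11 without Yaa 2 and Yaa 3 together. In 144 of 10339 genes r with Ifitm2 was above 0.9, against 37 for Ifitm6.

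For Ifitm3 they were Trem1, an activating receptor of phagocytes, at 0.982, Grwd1, of ribosome assembly, at 0.978, Cd14, the lipopolysaccharide co-receptor, at 0.976, P4hb, a disulfide isomerase, at 0.972, and Smim3 at 0.967. With group means taken away these r were 0.832 for Cd14, 0.844 for P4hb, 0.889 for Trem1 and Smim3, and 0.973 for Grwd1. Without Yaa 2 and Yaa 3, with the group means kept, they were 0.920 to 0.959. Trem1 had a difference of 1.38 ± 0.24 (SE) and Cd14 of 2.44 ± 0.33 (SE), which were 0.96 and 1.96 without Yaa 2 and Yaa 3, and Cd14 is also in the monocyte list. For Ifitm1 they were Preb, an exchange factor of vesicle budding, at 0.966, Il1rn, the interleukin-1 receptor antagonist, at 0.964, Idi1, of isoprenoid synthesis, at 0.964, G0s2, an inhibitor of lipolysis, at 0.964, and Ndrg1 at 0.964. With group means taken away those of Ifitm1 were 0.925 to 0.952. Without Yaa 2 and Yaa 3 they ranged from 0.686 to 0.964, so the likeness of Ifitm1 to most of these genes rested in part on these samples.

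Genes beside the cluster on chromosome 7 had small differences of both signs. In the order of the assembly, Ifitm5, Ifitm2, Ifitm1, Ifitm3 and Ifitm6 lie between Pgghg and B4galnt4. Of 17 flanking genes in a list, 13 were tested, 7 with higher and 6 with lower means in Yaa and a median difference of 0.01. It was -0.21 with the deposited signals, -0.12 with median scaling, -0.09 without Yaa 3 and -0.04 without Yaa 2 and Yaa 3 together. The median of all tested probe sets itself shifted by -0.19 with the deposited signals and by -0.10 with median scaling. Values of genes and lists with these scalings, here and below, include that shift. Limma called 0 of the 13, with 0 at an unadjusted p under 0.05. The nearest tested flanks were Pgghg at -0.19 ± 0.17 (SE) and Pkp3, of desmosomes, at -0.12 ± 0.23 (SE). Sigirr, a negative regulator of interleukin-1 and Toll-like receptor signals, had -0.39 ± 0.21 (SE), and -0.19 without Yaa 3. Ptdss2, of phosphatidylserine synthesis, had -0.43 ± 0.39 (SE) and stood at 9.56 in Yaa 2 and 11.18 to 11.58 elsewhere, so that without Yaa 2 its sign turned to 0.02; without Yaa 2 and Yaa 3 together it had -0.08. Bet1l had 0.20 ± 0.15 (SE) and Rnh1, the ribonuclease inhibitor, 0.17 ± 0.13 (SE), which were 0.13 and 0.10 without Yaa 2 and Yaa 3, and both turned sign with the deposited signals. Irf7, the interferon regulatory factor at the far side of the cluster, had 0.07 ± 0.17 (SE). The difference between members and neighbours was not tested.

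**Figure D5:**
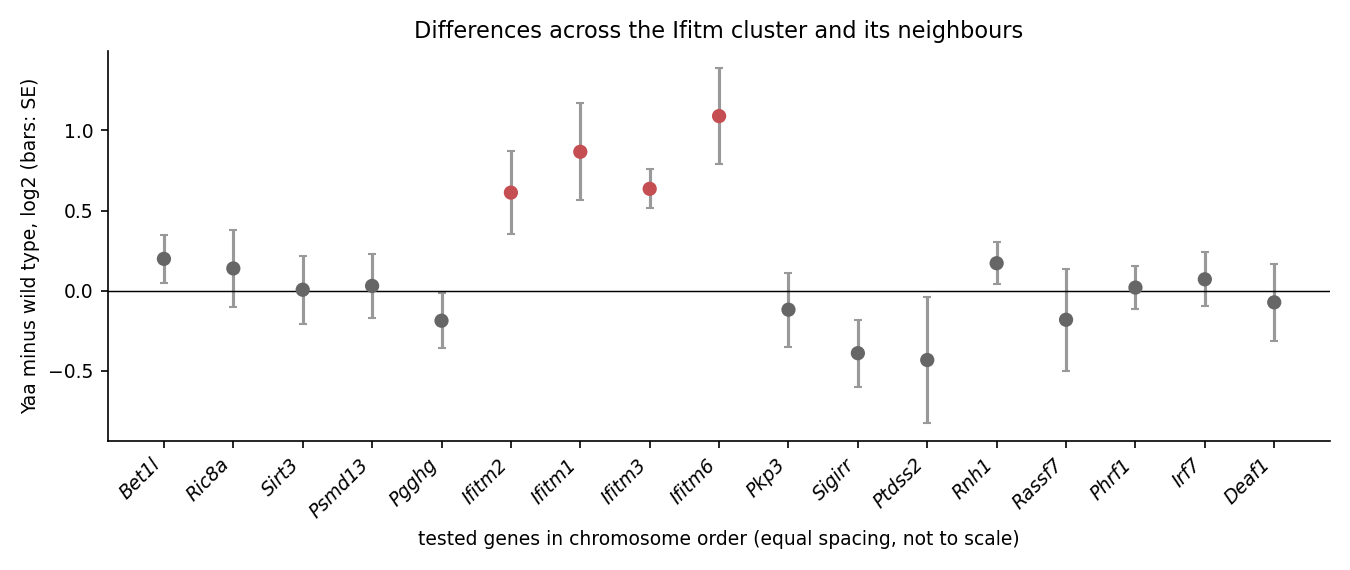
Yaa minus wild type on the log2 scale (points, bars for SE) for the tested genes of the Ifitm cluster (red) and its flanks (grey), in chromosome order with equal spacing. The 4 Ifitm genes lie between 0.61 and 1.09, and the 13 flanking genes between -0.43 and 0.20.

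Genes of the type I interferon response mostly had higher means in Yaa, and those of interferon-gamma had both signs. Of 25 type I interferon response genes 22 were tested, 18 with higher means, with a median difference of 0.33, which was 0.16 with the deposited signals. Limma called 0, with 4 at an unadjusted p under 0.05. Rtp4, a chaperone of receptors induced by interferon, stood at 7.27 to 8.03 in wild type and 8.43 to 8.99 in Yaa, a difference of 0.99 ± 0.19 (SE), or 1.17 without Yaa 2 and Yaa 3. Oas1a, an RNA-sensing synthetase, had 0.58 ± 0.15 (SE), or 0.36 with the deposited signals. Bst2, which tethers virions, had 0.55 ± 0.22 (SE), or 0.34 with the deposited signals and 0.36 both with array weights and without Yaa 2 and Yaa 3. Oasl2 had 0.56 ± 0.23 (SE), or 0.33 without Yaa 1, 0.35 with the deposited signals and 0.86 with array weights. The list's mean was highest in Yaa 4 (8.50) and Yaa 1 (8.46) and was 8.02 in Yaa 2, inside the wild-type range of 7.91 to 8.11. Ifitm6 was likewise high in Yaa 1 and lowest of the Yaa samples in Yaa 2, with r = 0.770 between Ifitm6 and the list mean over 8 samples. With the same list mean, r was 0.119 for Ifitm1, 0.055 for Ifitm2 and 0.492 for Ifitm3. Without Yaa 2 and Yaa 3 it was 0.673 for Ifitm1, 0.511 for Ifitm2, 0.950 for Ifitm3 and 0.822 for Ifitm6. Ifitm1 and Ifitm2 were lowest of the Yaa samples in Yaa 4, where the list was highest. The median r with these genes over 8 samples was 0.118 for Ifitm1, 0.054 for Ifitm2, 0.269 for Ifitm3 and 0.485 for Ifitm6. It was 0.542, 0.276, 0.749 and 0.574 in the same order without Yaa 2 and Yaa 3, so all 4 were higher over these 6 samples. Ifitm2 and Ifitm3, whose windows hold the GAAANNGAAA core shown above, had the lowest and the highest of these values.

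Of 16 interferon-gamma response genes 14 were tested, 8 higher and 6 lower, with a median difference of 0.08, which was -0.15 with the deposited signals, -0.09 without Yaa 2, 0.23 without Yaa 3 and 0.15 without both. Relative to the wild-type mean, the list stood at 0.39, 0.31, -0.11 and 0.20 in Yaa 1 to 4, so it was high in Yaa 2, as Ifitm1 and Ifitm2 were. In Yaa 3, where all 4 members were high, the list was at 7.95, inside the wild-type range of 7.89 to 8.16. With the list mean, r over 8 samples was 0.137 for Ifitm1, 0.033 for Ifitm2, 0.364 for Ifitm3 and 0.398 for Ifitm6. Without Yaa 2 and Yaa 3 it was 0.350, 0.962, 0.779 and 0.824 in the same order. Limma called 0, with 4 at an unadjusted p under 0.05, all higher. Igtp, a GTPase of the Irg family, stood at 8.56 to 8.83 in wild type and at 10.21, 8.89, 9.97 and 10.37 in Yaa 1 to 4, a difference of 1.18 ± 0.29 (SE). Irgm2, of the same family, had 1.66 ± 0.48 (SE), with Yaa 2 at 6.82, inside the wild-type range of 6.68 to 7.17. These were 1.60 and 2.25 without Yaa 2 and Yaa 3. Yaa 2 was the lowest Yaa sample for both, while Iigp1, another GTPase of the family, was lowest in Yaa 4 (6.98) with Yaa 2 at 7.20. Iigp1 had 0.51 ± 0.16 (SE), or 0.31 with the deposited signals, and the chemokine gene Cxcl10 had 0.81 ± 0.27 (SE).

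Receptors and signalling genes of the interferons had 15 of 17 tested, 10 higher and 5 lower, with a median difference of 0.06, which was -0.16 with the deposited signals, -0.03 without Yaa 2, 0.17 without Yaa 3 and 0.09 without both. Limma called 0, with 1 at an unadjusted p under 0.05, Socs3, a feedback inhibitor of cytokine signals, at 0.86 ± 0.36 (SE) and 0.51 without Yaa 2 or 0.45 without Yaa 2 and Yaa 3. The receptor chains Ifnar2 and Ifngr1 had 0.33 ± 0.18 and 0.36 ± 0.22 (SE), which were 0.18 without Yaa 3 and 0.17 without Yaa 2; without both samples they were 0.30 and 0.19. Irf3, a regulator of interferon genes, had -0.18 ± 0.11 (SE), or -0.41 with the deposited signals. Restriction factors had 13 of 16 tested, 7 higher and 6 lower, with a median of 0.03, or -0.15 with the deposited signals and 0.12 without Yaa 3. Limma called 0, with 1 at an unadjusted p under 0.05, Bst2. Mx1, a GTPase against influenza virus, had 0.30 ± 0.23 (SE), or 0.15 without Yaa 2, Apobec3, a cytidine deaminase, had -0.23 ± 0.18 (SE), or -0.10 without wild type 1, and Isg20, a nuclease, had -0.47 ± 0.41 (SE), which was 0.00068 without Yaa 2. Without Yaa 2 and Yaa 3 together Apobec3 had -0.11 and Isg20 -0.12.

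Partners and modifiers of IFITM proteins did not pass the test. Of 16 genes 15 were tested, 12 higher and 3 lower, with a median difference of 0.08, which was -0.11 with the deposited signals and 0.05 without Yaa 3, and limma called 0, with 0 at an unadjusted p under 0.05. The tetraspanin gene Cd9 had 0.36 ± 0.20 (SE), which was 0.22 without wild type 1 and 0.24 without Yaa 2 or without Yaa 2 and Yaa 3. Zmpste24, a membrane protease that works with IFITM proteins, had 0.31 ± 0.20 (SE), which was 0.14 without Yaa 3. Setd7, a lysine methyltransferase that acts on IFITM3, had 0.22 ± 0.20 (SE), 0.06 without Yaa 2, and turned sign with the deposited signals. Cr2, the complement receptor of the B cell surface complex that also holds IFITM1, had -1.30 ± 1.25 (SE), 0.20 without Yaa 3 and -0.17 without Yaa 2 and Yaa 3.

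Other relatives were dim. Ifitm5, a bone protein, stood at 4.24 to 4.43 in wild type and at 4.22, 4.79, 5.60 and 5.04 in Yaa 1 to 4. Ifitm7 ranged from 4.37 to 5.44 and Ifitm10 from 4.25 to 5.98 over all samples, with groups overlapping. All 3 fell below the filter on dim probe sets and were not tested. Of 7 other genes with the same kind of membrane domain 2 were tested, Tmem91 at 0.26 ± 0.18 (SE), or 0.12 without wild type 1, and Prrt1 at -0.03 ± 0.14 (SE), or -0.06 without Yaa 2 and Yaa 3, whose sign turned without wild type 3; limma called 0 of them, with 0 at an unadjusted p under 0.05.

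Markers of further cell types are given as lists. Splenic macrophage markers had 10 of 12 tested, 9 with higher means and a median difference of 0.33, which was 0.02 without Yaa 3 and 0.07 without Yaa 2 and Yaa 3. NK cell markers had 9 of 10 tested and stood at 9.10 in Yaa 3, against 7.54 to 8.17 elsewhere; their median difference was 0.44, and -0.11 without Yaa 2 and Yaa 3. Megakaryocyte markers had 8 of 9 tested, with 6.86 to 7.16 in wild type and 6.44 to 7.18 in Yaa. Markers of blood progenitors had 3 of 9 tested, with 6.69 to 6.95 and 6.95 to 7.33, and endothelial and stromal markers 6 of 10, with 5.90 to 6.17 and 6.04 to 6.46. Limma called 0 genes of these lists, with 1, 1, 2, 1 and 2 at an unadjusted p under 0.05, and it called 0 of the B cell, T cell and erythroid markers, with 0 at an unadjusted p under 0.05. The 2 megakaryocyte genes were lower in Yaa. All 9 NK cell and all 3 progenitor markers had higher means in Yaa. All 9 B cell, 10 T cell and 8 erythroid markers had lower means, with medians of -1.25, -0.66 and -0.41. Without Yaa 2 and Yaa 3 these medians were -0.28, 0.03 and -0.08.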

How the data were processed

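The authors deposited a linear intensity for each probe set, made with MAS5 per the submitters' processing notes. Version, scaling and filters were not given in the sources used here. Of 45101 probe sets, 64 were controls. Trimmed means of the arrays (2% at each end) ran from 106.2 to 192.1, so arrays were quantile normalized and taken as log2(signal + 16); this scale understates changes of dim probe sets. Controls were dropped, as were probe sets whose mean log2 signal did not exceed the array-wide median. Yaa was compared with wild type by limma 3.58.1 (R 4.3.3; lmFit and eBayes with a trend; Benjamini-Hochberg, threshold 0.05), checked on simulated data. The number of arrays limits the precision. Symbols came from the platform annotation, updated by Entrez ID to GRCm38.p6 (34741 of 34945 single-symbol probe sets matched); 932 probe sets with several symbols and 9160 without were not named. The brightest tested probe set stood for a gene.

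Members and lists were chosen with earlier results of these data known. Named are all members, the 5 genes most like each, up to 4 genes of smallest p per pathway list, and the 2 brightest per marker list; Pgghg, Pkp3, Irf7, Ly6g, Ly6c1 and Ly6c2 were named after values were seen. Alternatives were pseudocounts, filters, scalings, variance models, array weights, a replicate block and left-out samples; likeness without Yaa 2 and Yaa 3 was added after seeing the data. Figures used matplotlib 3.10.9 (Python 3.11.15).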

Additional observations from a re-analysis of the deposited data

Results flagged for a closer look

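Within each group of 4, a gene or list mean is given here where the gap of the highest or lowest sample to its neighbour took up more of the group's range than Dixon's 95% critical value for 4 samples allows. This held for 16 of 172 groups checked (9.30%), where chance gives about 1 in 20, and 0 of the 4 Ifitm members were among them. Yaa 3 was the outlying sample for B cell markers (gap 0.862 of the range for the list mean, 0.902 for Ms4a1, 0.86 for Cd79a), for the T cell gene Cd3d (0.863) and for the mean of splenic macrophage markers, where it was highest (0.836). Yaa 2 was lowest for the erythroid genes Slc4a1 (0.841) and Alas2 (0.863) and for Irgm2 (0.956), and highest for Socs3 (0.842) and Ifngr1 (0.879). Yaa 1 was highest for Oasl2 (0.849). Wild type 1 was lowest for Bst2 (0.915), Ccl9 (0.896) and the mean of progenitor markers (0.955), and highest for S100a8 (0.914). Wild type 2 was lowest for Iigp1 (0.843).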

How the results depend on the processing

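Limma called 1 probe set in all, and 1 again with log2(signal + 64), without the filter, with deposited signals, with median scaling and without a trend. It called 143 with array weights and 105 without Yaa 2 and Yaa 3 together. It called 0 with log2(signal + 1), with a stricter filter on brightness and with the replicate block (1032, 485 and 731 at an unadjusted p under 0.05). Leaving out 1 sample gave 0 to 30 calls: 0 without Yaa 1 or Yaa 3 (1018 and 1565 at an unadjusted p under 0.05), 30 without Yaa 2, 10 without Yaa 4 and 1 without any wild type. The cause was not tested. Same-numbered samples did not deviate together (correlations from -0.37 to 0.016). Because Yaa 2 and Yaa 3 stood far apart from the rest, these correlations cannot show whether same-numbered samples were paired. In the fit with the replicate block Ifitm3 had an adjusted p of 0.936. Among 69 genes named, 1226 values under alternatives held 25 turned signs. With the deposited signals these were Setd7 (-0.0060), Bet1l (-0.017), Rnh1 (-0.051), Vcam1 (-0.088), Flt3 (-0.060), Preb (-0.032) and Idi1 (-0.024). In that setting the median of all tested probe sets shifted by -0.19. With array weights they were Vcam1 (-0.062) and Flt3 (-0.16), and without Yaa 2 and Yaa 3 together Vcam1 (-0.15), Cd3d (0.090), Gzma (-0.028) and Flt3 (-0.011). With 1 sample left out the range was -0.086 without Yaa 3 to 0.013 without wild type 3 for Prrt1, and -0.066 without wild type 1 to 0.29 without Yaa 1 for Flt3, which was -0.046 without Yaa 2. From the value without Yaa 2 to that without Yaa 3 it was -2.04 to 0.20 for Cr2, -2.72 to 0.10 for Ms4a1, -1.75 to 0.37 for Cd3d, -0.50 to 0.079 for Pecam1 and 0.32 to -0.29 for Vcam1. From the value without Yaa 3 to that without Yaa 2 it was -0.65 to 0.023 for Ptdss2, -0.71 to 0.00068 for Isg20, -0.48 to 0.10 for Slc40a1 and -0.49 to 0.052 for Slc4a1. Of 304 list medians under alternatives, 17 moved by more than the spread between samples. Of these, 7 were with the deposited signals, where the median of all tested probe sets shifted by -0.19. Members were well above the floor, and the number of arrays limits the precision.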

Other observations

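Within wild type alone, where no Yaa difference enters, Ifitm2 and the monocyte and macrophage list had the same order of samples. Ifitm2 stood at 8.97, 9.09, 9.11 and 9.14 in wild type 1, 2, 4 and 3, and the list at 8.56, 8.65, 8.67 and 8.69 in the same samples. The order was not particular to monocytes. T cell markers (8.43, 8.76, 8.82 and 8.93) and NK cell markers (7.54, 7.83, 7.87 and 7.98) had it too. So did the first principal component (-18.42, 7.11, 14.27 and 20.05) and, among other lists, the interferon-gamma response and interferon receptors. Ifitm3 and Ifitm1 did not share this order. The monocyte list was lowest in wild type 1, where Ifitm3 was the second highest (10.62, lowest 10.41 in wild type 4). Ifitm1 was lowest in wild type 3 (6.85), where the monocyte list was highest. Ifitm6 and the neutrophil list had different orders there: Ifitm6 was highest in wild type 3 (8.26), where the neutrophil mean was lowest (7.99). The orders were noticed after the values were seen and were not tested.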
